A study of Arabidopsis thaliana with 16 samples.

Results

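FG plants were compared with wild-type (WT) plants in space on 8 ATH1 arrays of the 16 in the series, chosen by their labels as the arrays from space. FG-LD-sp, FG-SD-sp, WT-LD-sp and WT-SD-sp had 2 arrays each, so FG had 4 arrays and WT had 4. The other 8 arrays, from ground controls of the same 4 kinds, were used only to ask where the difference between the genotypes was another one on the ground. WT was the Columbia (Col-0) ecotype of Arabidopsis thaliana, and FG was a line in that background, homozygous for pHSP:FT and pHSP:GFP, which the study obtained by crossing plants with either construct. The promoter of both constructs is that of HSP17.4, a small heat shock protein gene that heat switches on, and WT carried neither construct. Long days (LD) had 16 h of light and 8 h of dark, and short days (SD) had 8 h of light and 16 h of dark. Only the SD plants were heated, in both genotypes and early in the flight, so in the SD groups daylength and heating cannot be told apart. Each treatment took 4 rosette leaves from 2 plants of 1 flight unit, harvested some hours after landing. The plants had grown on the ground before launch and already had rosette leaves when loaded. The study speaks of its arrays as biological replicates. It does not say which plants each array came from, and standard errors and p-values cover the spread between these arrays.

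FLOWERING LOCUS T (FT) is the florigen, a small protein made in leaf phloem that travels to the shoot apex and there joins FD to switch on flowering. In leaves and apex its action passes through MADS-box transcription factors, among them SOC1 and FUL, and SEPALLATA and PISTILLATA proteins then specify the organs of the flower. FT transcription is driven by CONSTANS under long days and held down by factors such as SVP, FLC, TEM1, TOE1 and the CYCLING DOF FACTORS.

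The question of the comparison was how leaves of the FG line differed from WT leaves in space. No line with pHSP:GFP alone was on the arrays, so the FT construct cannot be told apart from the rest of the line. With daylength as a covariate, 11 probe sets were higher in FG than in WT (0.0801% of the 13734 tested) and 8 were lower (0.0582%) (limma; called here means that the p after Benjamini-Hochberg adjustment was under 0.05 and the change 2-fold or more). Before adjustment, 159 probe sets were higher (1.16%) and 185 lower (1.35%) by the same limits, and such probe sets are termed nominal. The flowering genes SOC1 and PI and the defence regulator WRKY70 were among the 11 that rose in FG, and the cold regulator CBF2 and the dehydration gene ERD4 among the 8 that fell. All 19 had FG arrays that did not overlap WT arrays within either daylength, as did 771 probe sets higher in FG (5.61%) and 1034 lower (7.53%) in all. The calls lay near the threshold, with a smallest adjusted p of 0.0418, and their number moved with single arrays. It was 55 without FG-SD-sp replicate 1 and 18 without WT-SD-sp replicate 2. It was 10 without FG-SD-sp replicate 2, 5 without WT-LD-sp replicate 2 and 2 without FG-LD-sp replicate 2. It was 0 without FG-LD-sp replicate 1, WT-LD-sp replicate 1 or WT-SD-sp replicate 1. No gene among the 19 changed direction in any of these fits, and each lost its call for 5 to 8 of the 8 arrays. None of the 19 was called without the floor on low signals, without the filter, with a filter on present calls, after quantile normalization or with the spread taken over all 16 arrays.

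In space, the gene that the line was built to express was called present on the SD arrays of FG and on no WT array. FT (AT1G65480) had a present call, MAS 5.0's test that a transcript is above its mismatch probes, on both FG-SD-sp arrays, at signals of 73.5 and 206. On the FG-LD-sp arrays it had a marginal call at 75.9 and an absent call at 8.30. All 4 WT arrays had absent calls, at 57.7 and 61.2 under LD and 28.2 and 40.2 under SD. No group had both arrays above 75, the signal that served as a floor, so FT was not tested with the others. In a fit without that filter its log2 fold change was 0.37 ± 0.35 (standard error, as after every ± sign below), adjusted p = 0.994 (limma). That fit kept the floor, which raised all 4 WT arrays and the FG arrays at 8.30 and 73.5 to 75, so the value is not a bound. On the ground FT had present calls on all 4 FG arrays, at 296 and 717 under LD and 178 and 812 under SD, and absent calls on all 4 WT arrays, at 31.5 and 7.17 under LD and 4.25 and 19.4 under SD. The difference between FG and WT was 2.11 log2 units smaller in space than on the ground (-2.11 ± 0.65), adjusted p = 0.485 (limma). In that fit too, WT stood at the floor on every array. HSP17.4 (AT3G46230), the gene whose promoter drives the constructs, had signals of 40.2, 4.11, 88.0 and 7.86 on the FG arrays and 14.4, 2.08, 25.9 and 26.3 on the WT arrays in space. It was not kept either, and without the filter its log2 fold change was 0.06 ± 0.06, adjusted p = 0.994 (limma). This is not a bound either, since only the FG array at 88.0 was above the floor and every other array was raised to 75. The sources used here do not say which part of FT the probes cover, and GFP was not analysed here.

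**Figure D1:**
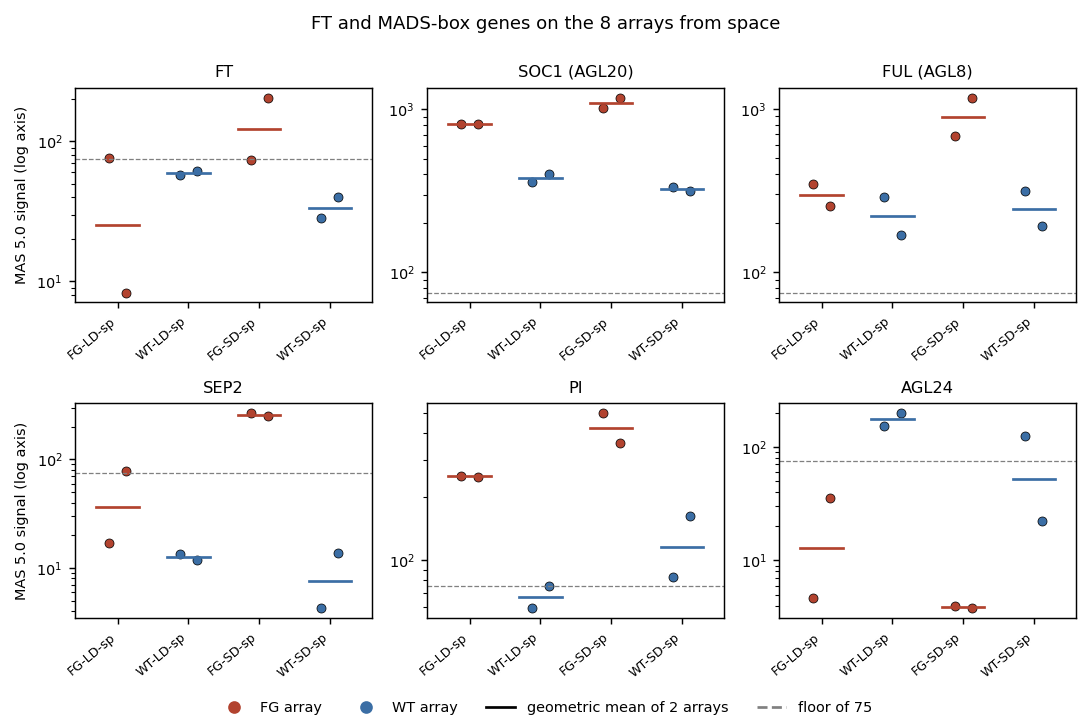
Signals of FT and 5 MADS-box genes on the 8 arrays from space (points, log axis; bars, geometric mean of the 2 arrays of a group; dashed line, the floor of 75), with FG-LD-sp, WT-LD-sp, FG-SD-sp and WT-SD-sp from left to right. SOC1 and PI were higher on all 4 FG arrays than on all 4 WT arrays, SEP2 was above 250 on both FG-SD-sp arrays alone, and AGL24 was under the floor on every FG array.

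SOC1 (AGL20, AT2G45660), the MADS-box factor that relays FT and other flowering signals, had signals of 817 and 820 (LD) and 1022 and 1184 (SD) in FG leaves, against 361 and 403 (LD) and 335 and 315 (SD) in WT leaves. Every FG array was above every WT array. Its log2 fold change was 1.43 ± 0.17 (2.70-fold), adjusted p = 0.0418, with 2.15-fold under LD and 3.39-fold under SD. PI (PISTILLATA, AT5G20240), which specifies petals and stamens, had signals of 251 and 248 (LD) and 498 and 358 (SD) in FG leaves, against 59.0 and 75.2 (LD) and 83.5 and 161 (SD) in WT leaves. The groups did not overlap here either, and the log2 fold change was 1.80 ± 0.21 (3.48-fold), adjusted p = 0.0418. SOC1 lost its call for 7 of the 8 left-out arrays and PI for 6. FUL (AGL8), which acts beside SOC1, had 348 and 254 (LD) and 680 and 1170 (SD) in FG leaves, against 287 and 169 (LD) and 314 and 191 (SD) in WT leaves. Its FG and WT arrays overlapped under LD and were apart under SD, and it did not pass the test, with 1.15 ± 0.35, adjusted p = 0.191. SEP2 (SEPALLATA2), a partner in flower organ identity, had 17.0 and 77.7 (LD) and 267 and 252 (SD) in FG leaves. In WT leaves it had 13.4 and 11.9 under LD and 4.24 and 13.8 under SD, and no WT array gave a present call. It had the smallest adjusted p under SD, 0.0739, with a log2 fold change of at least 1.79 ± 0.17, and 0.03 ± 0.17 under LD, where neither genotype was above background. The term for the difference between daylengths was 1.76 ± 0.24 for SEP2, adjusted p = 0.377. SEP2 passed the filter through FG-SD-sp alone. Its WT arrays all entered these fits at the floor of 75, with no spread between them, which narrows the standard errors.

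Most other genes of this group were under the floor in leaves or did not pass the test. Of 28 floral integrators and partners on the array, 10 were kept and 1, SOC1, was called (against 0.0801% of all probe sets called higher), with 3 nominally higher (against 1.16%) and none nominally lower. Their median log2 fold change was 0.12, against -0.02 over all 13734 probe sets. Under LD the median was -0.25, with 1 nominally higher (against 1.78%) and 1 nominally lower (against 2.12%). Under SD it was 0.45, with 3 nominally higher (against 1.21%) and none nominally lower. AGL42, a relative of SOC1, had present calls on all 4 FG arrays, at 77.2, 349, 154 and 136, and on no WT array, where signals were 12.8, 22.5, 2.49 and 7.20. Its log2 fold change was at least 1.04 ± 0.39, adjusted p = 0.259. AGL24, another activator of flowering, ran the other way, with signals of 4.64, 35.4, 3.95 and 3.78 in FG leaves, all without a present call, against 154, 198, 125 and 22.1 in WT leaves. That was -0.79 ± 0.23 or lower, adjusted p = 0.174. SPL3, a microRNA-regulated promoter of flowering, was lower on both FG arrays of each daylength than on the WT arrays, with -0.46 ± 0.14, adjusted p = 0.180. SPL4 had -0.38 ± 0.21 and NAKR1, which helps FT move through the phloem, -0.32 ± 0.23. The meristem and flower identity genes AP1, CAL, LFY, SEP1 and SEP3 were not kept, nor were FD and TSF. Of the 8 flower organ markers on the array, PI was the one with present calls in space, on all 8 arrays, and the other 7, among them AP3 and AG, had none. Their summed signal, which rests on PI, was 378 to 649 on FG arrays and 152 to 310 on WT arrays (exact permutation test within daylength, 2-sided, p = 0.0556, the smallest that 36 regroupings allow; adjusted p = 0.370 over 10 array measures). In such samples more cells of a type and more RNA per cell cannot be told apart.

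Upstream of FT no gene was called. Of 34 FT regulators on the array 27 were kept, 14 with a positive and 13 with a negative fold change, and their median was 0.01. CONSTANS itself was under the floor on every array but WT-LD-sp replicate 1, where it had 129. CDF1, a repressor of CONSTANS and FT, had 632 and 771 (LD) and 356 and 387 (SD) in FG leaves, against 969 and 1182 (LD) and 969 and 637 (SD) in WT leaves. FG arrays were below WT arrays in both daylengths, with -0.85 ± 0.19, adjusted p = 0.105. AT1G69570, annotated like CDF1 as a Dof factor, ran the other way, with 0.65 ± 0.13, adjusted p = 0.0829. FCA, an RNA-binding protein of the autonomous flowering pathway, had 0.50 ± 0.14, adjusted p = 0.169. Among repressors, TOE1 (RAP2.7) had -0.83 ± 0.29, adjusted p = 0.238, and TEM1 had 0.57 ± 0.21, adjusted p = 0.257. PCC1 (PATHOGEN AND CIRCADIAN CONTROLLED 1), listed both here and with salicylic acid defence, had the smallest p of the list and is described with the defence genes.

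Of 21 clock genes kept, which time the CONSTANS rhythm, none was called, 13 were positive and 8 negative, and the median was 0.05. GRP7 (CCR2), a clock-controlled RNA-binding protein, had 2094 and 3306 (LD) and 2412 and 4506 (SD) in FG leaves, against 5059 and 4955 (LD) and 9821 and 7347 (SD) in WT leaves. All FG arrays were below all WT arrays, with -1.15 ± 0.24, adjusted p = 0.0991. LHY, a morning oscillator gene, had 0.42 ± 0.14 with adjusted p = 0.223, and its relative RVE4 (LCL1) had 0.39 ± 0.14 with adjusted p = 0.244. AT5G52660 had -0.44 ± 0.18, adjusted p = 0.288, LNK2 0.44 ± 0.18, adjusted p = 0.289, and COL9, a CONSTANS relative, -0.46 ± 0.23, adjusted p = 0.381. CCA1 and TOC1, which repress each other at the core of the clock, had 0.11 ± 0.18 and -0.12 ± 0.20.

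**Figure D2:**
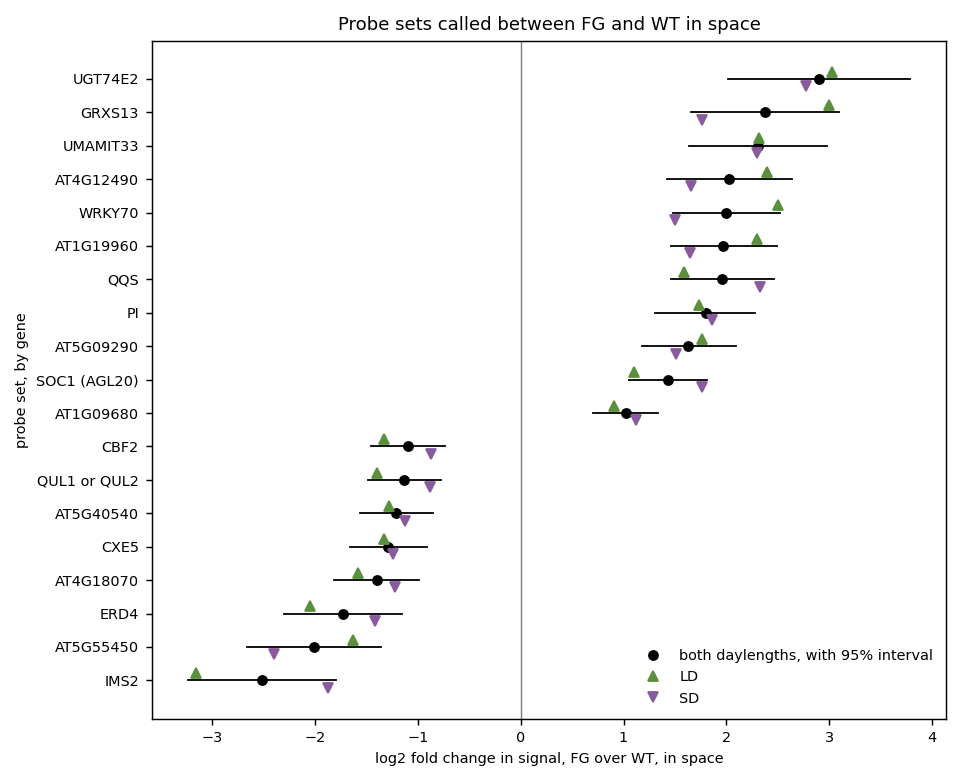
Log2 fold change of FG over WT in space for the 19 called probe sets, with daylength as a covariate (circles, bars the 95% interval) and within LD (triangles up) and SD (triangles down). Every probe set had the same sign in both daylengths; IMS2 in FG and AT1G19960 in WT had no present call above the floor, so their values are bounds.

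The other 8 genes called higher in FG had varied roles. QQS (QUA-QUINE STARCH, AT3G30720), a small protein linked to leaf starch, had signals of 938 and 1027 (LD) and 1347 and 850 (SD) in FG leaves, against 279 and 383 (LD) and 201 and 225 (SD) in WT leaves. Its log2 fold change was 1.96 ± 0.22, adjusted p = 0.0418. UGT74E2 (AT1G05680), a glycosyltransferase known to act on the auxin indole-3-butyric acid, had 1347, 463, 463 and 1072 in FG leaves and 37.3, 125, 81.5 and 129 in WT leaves. It rose most of the 19, with 2.90 ± 0.39 (7.49-fold), adjusted p = 0.0418. GRXS13, a glutaredoxin, rose with 2.38 ± 0.32, and UMAMIT33, a nodulin MtN21-like transporter, with 2.31 ± 0.30, both at adjusted p = 0.0418. AT4G12490, annotated as a lipid-transfer protein, rose by 2.03 ± 0.27 and AT5G09290, an inositol monophosphatase family protein, by 1.63 ± 0.20, again both at adjusted p = 0.0418. AT1G19960 (hypothetical protein) rose by at least 1.97 ± 0.23, adjusted p = 0.0418, and AT1G09680, a pentatricopeptide repeat protein, by 1.02 ± 0.14, adjusted p = 0.0458. Signals of these 6 ranged over the FG arrays from 172 for AT1G19960 to 5556 for GRXS13. Most WT arrays of AT1G19960 and of AT5G09290 entered these fits at the floor, which narrows their standard errors.

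Of the 8 that fell, IMS2 (AT5G23020), annotated as a 2-isopropylmalate synthase, had 33.4, 4.61, 29.8 and 31.2 in FG leaves, below the floor on every array, against 763, 589, 411 and 186 in WT leaves. Its log2 fold change was -2.52 ± 0.32 or lower, adjusted p = 0.0418. AT5G55450, a lipid-transfer protein, fell by 2.01 ± 0.29 log2 units, adjusted p = 0.0458, while its family member AT4G12490 had risen. CXE5, a carboxylesterase, had -1.29 ± 0.17, the kinase AT5G40540 -1.21 ± 0.16 and AT4G18070 (hypothetical protein) -1.40 ± 0.18, each at adjusted p = 0.0418. A probe set shared by QUL1 and QUL2, relatives of QUASIMODO2, had -1.14 ± 0.16, adjusted p = 0.0458, and cannot be assigned to either. CBF2 and ERD4 are given with the cold genes.

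Calls within LD were more numerous than within SD. Under LD, where no plant was heated, 12 probe sets were higher in FG (0.0874%) and 13 lower (0.0947%), with 244 (1.78%) and 291 (2.12%) nominally so. Under SD none was called in either direction (0% and 0%, limma), with 166 nominally higher (1.21%) and 207 nominally lower (1.51%), and an unmoderated test on the 4 SD arrays gave 165 probe sets unadjusted and 0 after adjustment. The test of the difference between daylengths called none either (0% and 0%, limma), with 200 probe sets nominally higher under SD (1.46%) and 193 lower (1.41%), so the 2 daylengths were not shown to differ in any gene. The LD count was 6 without either FG-SD-sp array, 3 without either WT-SD-sp array, 1 without FG-LD-sp replicate 2 or WT-LD-sp replicate 2, and 0 without FG-LD-sp replicate 1 or WT-LD-sp replicate 1. It was also 2 without the floor and 0 with only the 4 LD arrays in the fit. The SD count was 3 without FG-SD-sp replicate 1. The LD and SD fold changes share no array. The nominal sets were chosen with 1 spread estimated over all 8 arrays, so setting them against each other is not an independent check. Of 535 probe sets nominal under LD, 447 had the same sign under SD (83.6%), against 60.6% of all 13734. Of the 373 nominal under SD, 308 had the same sign under LD (82.6%), and Pearson's r of the fold changes was 0.42 across probe sets, which are not independent of each other.

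Among the 13 probe sets called lower under LD, several had fold changes nearer 0 under SD, a difference between daylengths that passed for none. AT2G35290 (hypothetical protein) had 59.1 and 96.6 in FG-LD-sp leaves, against 1031 and 938 in WT-LD-sp leaves, and under SD 1073 and 1141 in FG leaves and 1520 and 1531 in WT leaves. It fell by 3.53 ± 0.20 log2 units under LD (11.6-fold), adjusted p = 0.00243, and of the 25 LD calls it lost its call for the fewest of the 8 left-out arrays, 3, the others losing theirs for 6 to 8. Under SD it had -0.46 ± 0.20, and the difference between daylengths was 3.07, adjusted p = 0.0870. SRO5, a stress gene of the poly(ADP-ribose) polymerase-like family, had 89.8 and 113 in FG-LD-sp leaves, against 1676 and 1253 in WT-LD-sp leaves, a fall of 3.85 ± 0.45 log2 units, adjusted p = 0.0402. CYP94B3, which oxidises the active jasmonate, had -3.87 ± 0.48, adjusted p = 0.0416, and DREB2A, a transcription factor of heat and drought, -2.49 ± 0.27, adjusted p = 0.0402. CML38, a calmodulin-like protein, had -2.34 ± 0.30, adjusted p = 0.0456, and PCK1, the phosphoenolpyruvate carboxykinase of gluconeogenesis, -1.67 ± 0.19, adjusted p = 0.0402. The receptor-like kinase CRK21 had 120 and 130 in FG-LD-sp leaves, against 508 and 444 in WT-LD-sp leaves, a fall of 1.93 ± 0.18 log2 units, adjusted p = 0.0342. Each of these last 6 was closer to 0 under SD, from -0.96 ± 0.45 for SRO5 and -0.96 ± 0.48 for CYP94B3 to -0.04 ± 0.18 for CRK21, with adjusted p of 0.377 to 0.886 for the difference between daylengths. Among rises under LD, CYP71A13, an enzyme of camalexin synthesis, had 2.38 ± 0.28 and SAUR9, an auxin-responsive gene, 1.83 ± 0.20, both at adjusted p = 0.0402.

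Under SD the leading differences did not pass the threshold. AT1G68500 (hypothetical protein) had 81.2 and 127 in FG-SD-sp leaves, against 518 and 534 in WT-SD-sp leaves, with -2.37 and adjusted p = 0.0739. CT-BMY, a chloroplast beta-amylase that degrades starch, had 1061 and 576 in FG-SD-sp leaves, against 3122 and 3192 in WT-SD-sp leaves (-2.01, adjusted p = 0.202), and between 14763 and 16948 on all 4 LD arrays. ACD6, a membrane protein that promotes cell death, had 526 and 297 in FG-SD-sp leaves against 1778 and 1307 in WT-SD-sp leaves (-1.95, adjusted p = 0.226). By p, QQS, with 2.33, and SOC1, with 1.76, came next to SEP2 on the higher side, and UGT74E2 had the wider difference of 2.78, adjusted p = 0.272. AGP10, an arabinogalactan protein, had 1.51, adjusted p = 0.215.

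Part of the salicylic acid defence list, genes that act in immunity to biotrophic pathogens, rose in FG in space. Of 18 members kept, WRKY70 was called with daylength as a covariate, and WRKY70 and WRKY54 under LD. In the list 5 members, to be read against the 1.16% of all probe sets, were nominally higher and none nominally lower, and the median of the list was 0.11. Under LD the median was 0.36, with 5 nominally higher (against 1.78%) and none nominally lower. Under SD it was 0.02, with 3 nominally higher (against 1.21%) and 3 nominally lower (against 1.51%), the last being PR2, PR5 and ACD6. WRKY70 (AT3G56400), a transcription factor of salicylic acid responses, had 5250 and 5209 (LD) and 2905 and 2732 (SD) in FG leaves, against 1102 and 773 (LD) and 904 and 1099 (SD) in WT leaves. All FG arrays were above all WT arrays, with 2.00 ± 0.23, adjusted p = 0.0418. Its close relative WRKY54 had 1343 and 1635 in FG-LD-sp leaves, against 301 and 203 in WT-LD-sp leaves, and rose there by 2.58 ± 0.30, adjusted p = 0.0402. PR1, the classical marker of the salicylic acid response, had 14652, 15562, 14711 and 18214 in FG leaves, against 2270, 2338, 1428 and 6230 in WT leaves. It missed the threshold with 2.58 ± 0.38, adjusted p = 0.0518. PCC1 had 10766, 14874, 6004 and 1465 in FG leaves, against 1444, 2657, 713 and 881 in WT leaves, with a 4.92-fold higher mean, adjusted p = 0.0829. FMO1, an enzyme of systemic acquired resistance, had 1.36 ± 0.38, adjusted p = 0.162. Outside the list, LURP1, named for its late rise in leaves infected with Hyaloperonospora parasitica, had 11060 and 9150 in FG-LD-sp leaves, against 638 and 1034 in WT-LD-sp leaves, and rose there by 3.63 ± 0.36 (12.4-fold), adjusted p = 0.0366. The salicylic acid receptor NPR4 rose under LD by 1.39 ± 0.18 and the lectin-like AT5G03350 by 3.17 ± 0.41, both at adjusted p = 0.0456.

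Other markers of the same response had values on the other side of 0 or near it. PR2 (BGL2), a beta-glucanase, had 9818, 5535, 8380 and 6211 in FG leaves, against 17650, 9293, 12261 and 19346 in WT leaves, with -0.95 ± 0.28, adjusted p = 0.177. PR5 had -1.26 ± 0.56, adjusted p = 0.338, its SD arrays reading 3445 and 1236 in FG leaves and 3698 and 18882 in WT leaves. ICS1 (EDS16), which makes salicylic acid, had 0.06 ± 0.48, and EDS1 and PAD4, which act upstream of it, had -0.05 ± 0.18 and 0.13 ± 0.31.

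On the ground the genotype difference of several of these genes ran the other way. Between space and ground, the difference of FG minus WT was larger in space for 16 probe sets (0.112% of 14286) and smaller for 1 (0.00700%), tested over all 16 arrays (limma). For all 16 FG was above WT in space and below it on the ground, for 11 of the 17 by at least 2-fold in both. WRKY70 on the ground had 1346 and 946 (LD) and 1769 and 739 (SD) in FG leaves, against 4160 and 7757 (LD) and 3299 and 4287 (SD) in WT leaves. Every FG array on the ground was below every WT array, the reverse of space, and the 2 differences were 4.02 ± 0.42 log2 units apart, adjusted p = 0.00855. LURP1 had 271, 99.1, 811 and 653 in FG leaves on the ground, against 8774, 9743, 1283 and 4689 in WT leaves, and its differences were 6.44 ± 0.60 apart, adjusted p = 0.00659. For ANK (AT5G54610), an ankyrin protein, they were 3.97 ± 0.43 apart, adjusted p = 0.00855, for PCC1 5.91 ± 0.87, adjusted p = 0.0355, and for WRKY54 4.28 ± 0.61, adjusted p = 0.0325. SARD1, a transcription factor that promotes salicylic acid synthesis, was called through both of its probe sets, with 3.34 ± 0.45, adjusted p = 0.0315, and 2.99 ± 0.43, adjusted p = 0.0325. The receptor kinase gene RK3 had 2.55 ± 0.37 and AT5G45000, a disease resistance protein, 2.88 ± 0.41, both at adjusted p = 0.0325; these and SARD1 were chosen after their values were seen. The call survived the omission of any 1 array for LURP1, was lost for 1 of the 16 arrays for WRKY70 and ANK, and for 8 to 15 for the others. The 1 that ran the opposite way was CYP81D11, a cytochrome P450, with -1.91 ± 0.27, adjusted p = 0.0325, also chosen after its values were seen. Without the floor 7 of the 17 lost the call, among them CYP81D11, WRKY54 and ANK, with adjusted p of 0.197, 0.105 and 0.105. Over all genes tested in space, 55.8% had the same sign on the ground, and of the 19 called in space 13 did (68.4%). SOC1 was among these, with 1.26 on the ground, and PI had 0.35. Leaving out 1 array gave 1 call without WT-LD-sp replicate 2, 3 without WT-SD-sp replicate 1, and 4 without either FG-LD-sp array, FG-SD-gr replicate 2 or WT-LD-gr replicate 2. It gave 5 without FG-SD-sp replicate 1, WT-SD-sp replicate 2 or WT-SD-gr replicate 1, 6 without WT-LD-sp replicate 1, 7 without FG-SD-sp replicate 2 and 11 without FG-LD-gr replicate 1. It gave 36 without FG-SD-gr replicate 1 and 34 without WT-SD-gr replicate 2.

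**Figure D3:**
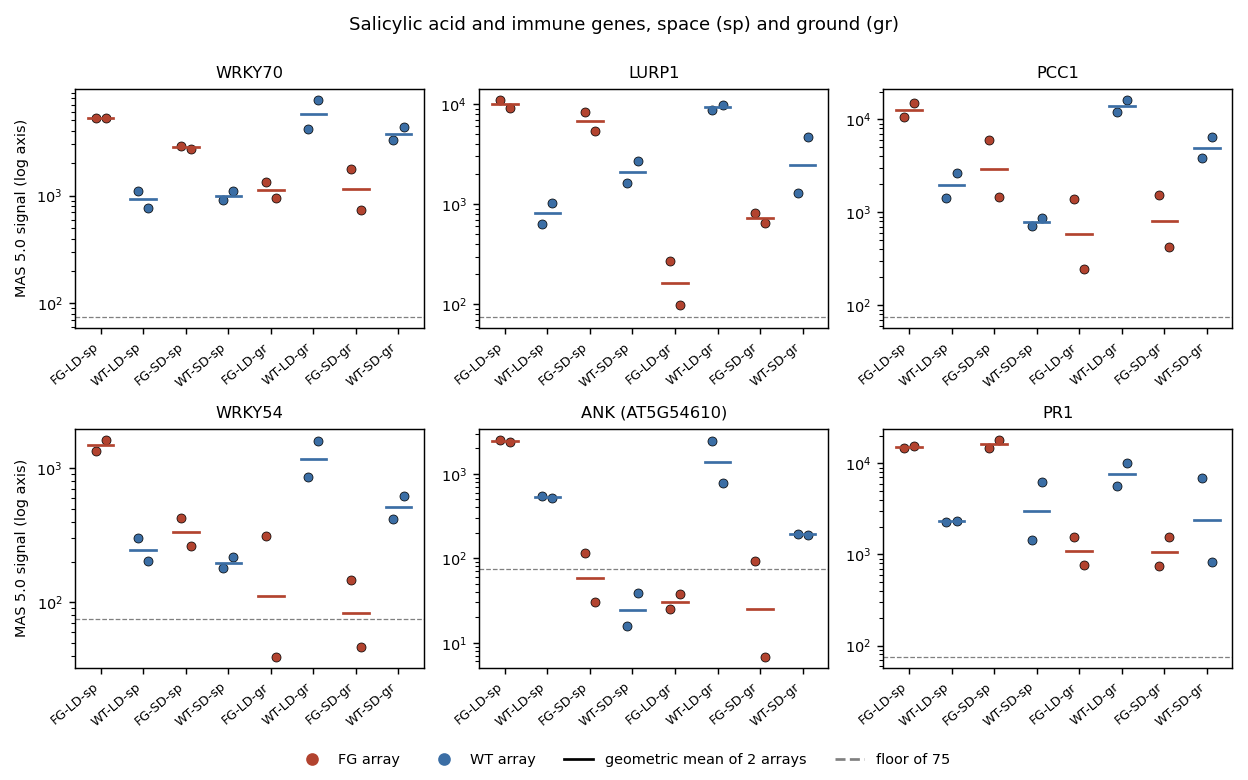
Signals of 6 immune genes on all 16 arrays (points, log axis; bars, geometric mean of the 2 arrays of a group; dashed line, the floor of 75), space (sp) groups left of ground (gr) groups and FG left of WT within each pair. FG lay above WT in space and below it on the ground for WRKY70 and LURP1 in both daylengths.

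The cold response list had the lowest median of the lists drawn, -0.87 over 8 genes, 1 of them called lower and 4 nominally lower (against 1.35% of all probe sets). CBF2 (AT4G25470), 1 of 3 transcription factors that switch on cold tolerance genes, had 2672 and 2857 (LD) and 3082 and 3570 (SD) in FG leaves, against 7058 and 6866 (LD) and 6902 and 5309 (SD) in WT leaves. All FG arrays were below all WT arrays, with -1.10 ± 0.16 (2.14-fold lower), adjusted p = 0.0472. CBF1 had 1073, 1073, 1902 and 3277 in FG leaves, against 3838, 3992, 5096 and 3881 in WT leaves, with -1.35 ± 0.26, adjusted p = 0.0829. CBF3 (DREB1A) had -1.38 ± 0.30, adjusted p = 0.105, and LTI30, a dehydrin, -1.56 ± 0.45, adjusted p = 0.174. GolS3, which makes galactinol, had a bound of -0.63 ± 0.24 or lower, adjusted p = 0.275, while ICE1, the activator of the CBF genes, had 0.03 ± 0.15 and ZAT12 (RHL41) -0.14 ± 0.21. Ground replicates could lie far apart, with 4157 and 52.8 for LTI30 and 433 and 40.4 for CBF1 in FG-SD-gr leaves. As means of such arrays, the log2 fold change of FG over WT on the ground was -1.13 for CBF2, -1.43 for CBF1, -0.60 for CBF3, -1.03 for LTI30 and -0.08 for GolS3. None of these was called between space and ground (limma).

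Some dehydration genes are known targets of CBF factors. Of 15 genes of abscisic acid and dehydration 5 were nominally lower (against 1.35% of all probe sets) and none nominally higher, none was called, and the median was -0.45. RD29A (LTI78) had 707 and 835 (LD) and 6938 and 1459 (SD) in FG leaves, against 11954 and 5562 (LD) and 14396 and 9580 (SD) in WT leaves. FG arrays were below WT arrays in both daylengths, with -2.65 ± 0.52, adjusted p = 0.0829. COR15A, a chloroplast protein that protects membranes in freezing, had 167, 933, 907 and 71.4 in FG leaves and 6600, 5994, 6438 and 1312 in WT leaves, with -3.74 ± 0.84, adjusted p = 0.108. COR15B had -2.33 ± 0.69, adjusted p = 0.178, and the dehydrin ERD10 -1.49 ± 0.42, adjusted p = 0.164. ERD4 (AT1G30360), outside the list, had 1233 and 1940 (LD) and 3212 and 1864 (SD) in FG leaves, against 7418 and 5520 (LD) and 7443 and 5732 (SD) in WT leaves. It fell by 1.73 ± 0.25 log2 units (3.32-fold), adjusted p = 0.0476. The signalling genes of abscisic acid were closer together, ABI1 having 0.16 ± 0.18 and ABF4 0.02 ± 0.17. Leaving out 1 array ended the calls of CBF2 and ERD4 for 7 of the 8 arrays. Ground replicates lay far apart, with 11222 and 5.57 for RD29A, 54059 and 3802 for ERD10 and 8416 and 762 for ERD4 in FG-SD-gr leaves. As means of such arrays, FG over WT on the ground was -2.72 for RD29A, -0.90 for COR15A, -0.97 for COR15B, -1.02 for ERD10 and -0.97 for ERD4 in log2. None of these was called between space and ground (limma).

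**Figure D4:**
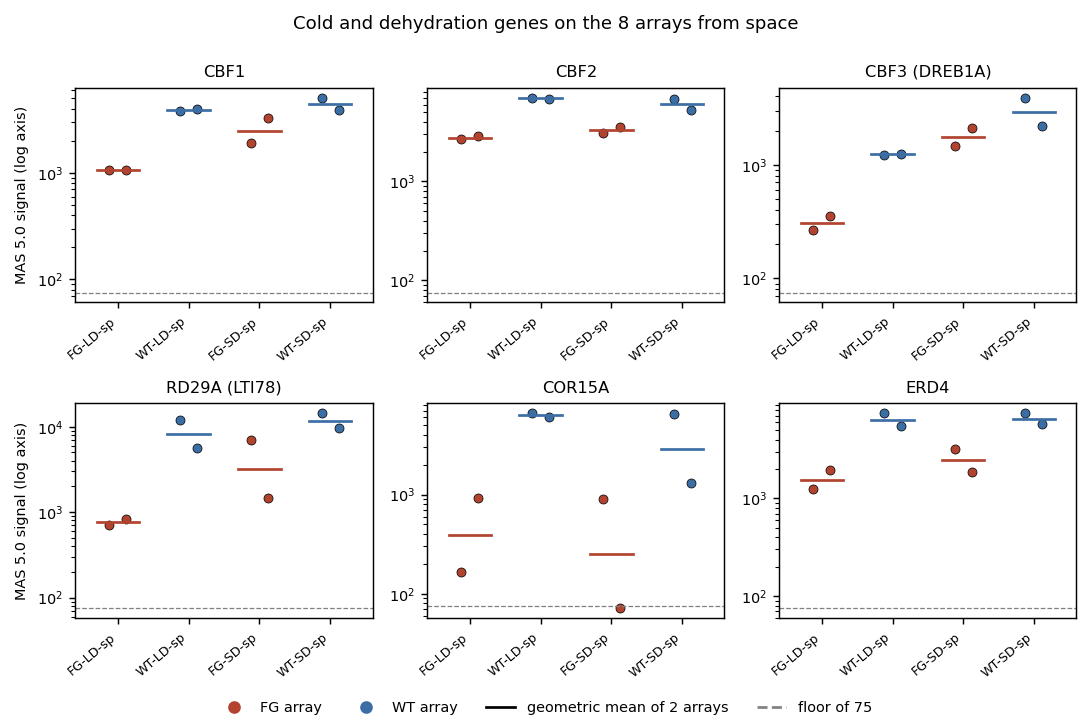
Signals of 6 cold and dehydration genes on the 8 arrays from space (points, log axis; bars, geometric mean of the 2 arrays of a group; dashed line, the floor of 75), with FG left of WT in each daylength. CBF2 and ERD4, the 2 called, were lower on all 4 FG arrays than on all 4 WT arrays.

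Jasmonate genes had a median of -0.52, with 17 of 19 negative, 2 nominally lower (against 1.35% of all probe sets) and none called. AOC3, an enzyme of jasmonate synthesis, had -1.08 ± 0.44, adjusted p = 0.294, and CORI3 -1.21 ± 0.49, adjusted p = 0.295. MYC2, the main transcription factor of the pathway, had -0.59 ± 0.23, adjusted p = 0.275. One array, WT-LD-sp replicate 1, stood above the other WT-LD-sp array in AOC3 (1745 against 509) and in JAZ1 (10569 against 4645). Genes induced by darkness and low sugar had a median of 0.45, with 9 of 12 positive, 2 nominally higher (against 1.16% of all probe sets) and none called. DIN2, a beta-glucosidase, had 1667, 216, 7984 and 8493 in FG leaves, against 83.8, 57.6, 2289 and 4467 in WT leaves, with 2.14 ± 0.60, adjusted p = 0.164. DIN6 (ASN1), an asparagine synthetase, had 1.94 ± 0.52, adjusted p = 0.156. Heat shock genes, drawn because the promoter of the constructs is one, had a median of -0.17 over 12 kept, and DREB2A was the member called, under LD. Medians were 0.32 for light harvesting, 0.06 for chlorophyll synthesis and -0.12 for the Calvin cycle, with no member called. The medians of these lists and of those above kept their sign under 7 other settings, except that of the FT regulators, which was 0.00 under 2 of them.

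**Figure D5:**
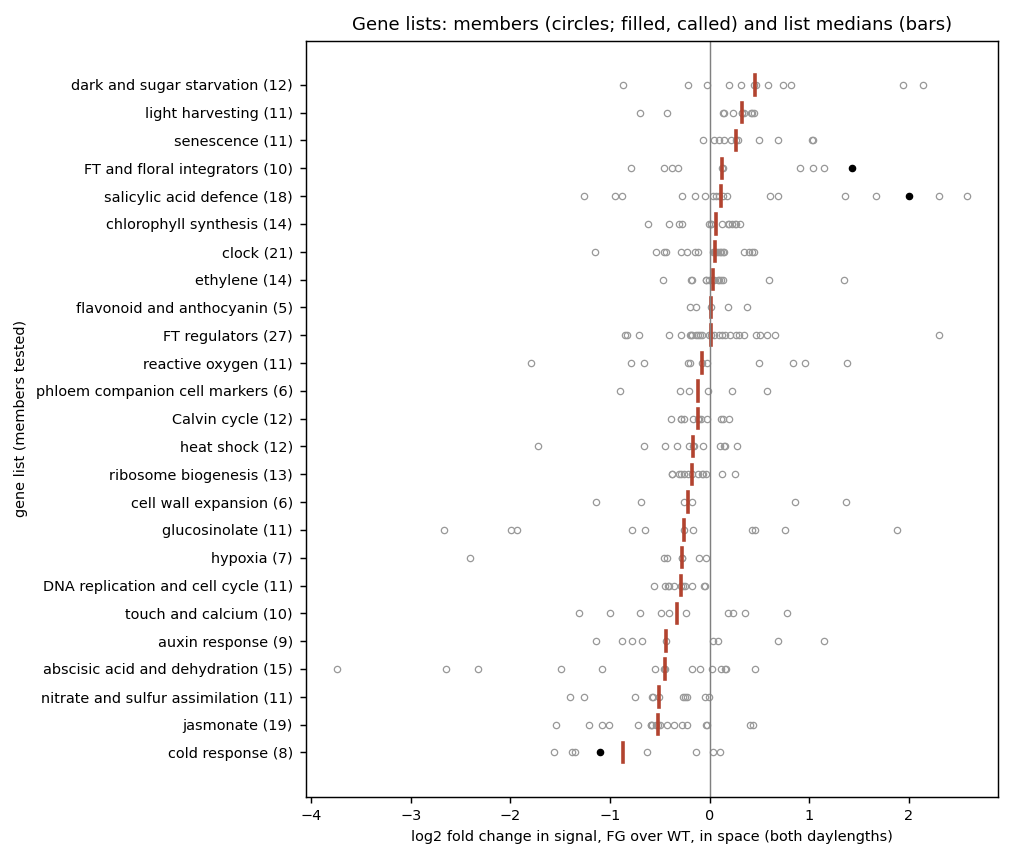
Log2 fold change of FG over WT in space for the tested members of 25 gene lists (open circles; filled circles, called), with each list's median as a bar and the number of members tested in brackets. Medians ran from -0.87 for the cold response to 0.45 for dark and sugar starvation, and the called members were SOC1, WRKY70 and CBF2.

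The leaf label and the quality of the arrays were checked on the same arrays. All 11 light-harvesting genes with a probe set of their own had present calls in both genotypes, 9 of them on all 8 arrays, with a summed signal of 53996 to 75957 on FG arrays and 49356 to 62317 on WT arrays. Of root markers 4 of 8, and of guard cell markers 4 of 6, had a present call on at least 1 FG array, against 4 and 3 on WT arrays. Their summed signals were 2344 to 3715 and 271 to 670 on FG arrays and 1920 to 2566 and 242 to 837 on WT arrays, and 8079 to 10951 against 6440 to 14181 for phloem companion cells. Present calls covered 55.2% to 58.7% of probe sets on FG arrays and 58.1% to 60.3% on WT arrays (exact permutation test within daylength, 2-sided, p = 0.111). The 3′ to 5′ difference of GAPDH in log2 signal, which grows as RNA degrades, was 0.61 to 1.14 on FG arrays and 0.12 to 0.75 on WT arrays (same exact test, p = 0.167). For actin it was 2.97 to 3.73 and 3.16 to 3.62 (p = 0.500 in the same exact test), and spike-in controls differed by 0.00 log2 units. With 36 regroupings this test cannot reach 0.05, and the part of these measures in the gene differences was not tested.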

How the data were processed

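RNA of Arabidopsis leaves was hybridised to ATH1 arrays, 2 per group. The authors deposited log2 signals of Affymetrix MAS 5.0 with detection calls; the deposited signals were scaled to a trimmed mean of 500, with 2% set aside at each end. Depth does not apply to arrays, whose number limits the precision. Signals under 75, the floor named in the methods, were raised to 75 here, since the deposited table does not apply it. Probe sets above 75 on both arrays of at least 1 of the 4 space groups were kept, 13734 of 22746. FG was tested against WT with daylength as a covariate on the 8 space arrays in limma 3.58.1 (R 4.3.3), and within LD, within SD and between them in a fit of group means, with Benjamini-Hochberg adjustment over all kept probe sets. The difference between space and ground was tested on 16 arrays and 14286 probe sets. A fold change is given as a bound where no array of 1 genotype was both called present and above 75, and no array of the other was raised to 75. Arrays raised to 75 show no spread between them. The scripts were tested on simulated data. Alternatives were other floors, filters, scalings, variance models, an equal-variance test without moderation (2-fold and the same direction in both replicates, as the methods ask), a replicate block and each array left out. Genes to name were the called ones, filled up in each comparison by smallest p among probe sets of 1 gene with at least a 2-fold change. Genes of smallest p from the 29 gene lists were added, up to 4 from most lists. More came from the lists of FT and floral integrators, FT regulators and clock. Not all of these are named in the text. The members and lists were chosen with earlier results of these data known. Of probe sets, 21635 had 1 gene, 1110 several and 1 none. RefSeq (TAIR10.1) gave gene names only.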

Additional observations from a re-analysis of the deposited data

Results flagged for a closer look

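For 6 genes named above, the difference of FG minus WT in space was tested against the same difference on the ground over all 16 arrays (limma, Benjamini-Hochberg adjusted), and the test of that difference passed. LURP1 led, at 6.44 ± 0.60 log2 units between space and ground (SE), with FG 2.65 above WT in space and 3.79 below it on the ground (-3.79). PCC1 followed at 5.91 ± 0.87, WRKY54 at 4.28 ± 0.61, WRKY70 at 4.02 ± 0.42 and ANK at 3.97 ± 0.43. AT5G09290, the inositol monophosphatase family gene that was also called higher in FG in space, was at 2.81 ± 0.37, adjusted p = 0.0297, with signals of 258, 249, 261 and 325 in FG leaves in space against 38.8, 63.0, 57.6 and 139 in WT leaves, and on the ground 107, 123, 75.7 and 105 in FG leaves against 281, 596, 124 and 131 in WT leaves. On signals without the floor, ANK and WRKY54 lost their calls, both at adjusted p = 0.105. All 4 FG plants' arrays in space came from 1 flight unit, as did those of WT, so what else differed between flight and ground cannot be told apart from environment.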

How the results depend on the processing

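With daylength as a covariate the 19 calls became 0 without the floor, 0 without the filter, 0 with a filter on present calls, 0 after quantile normalization and 0 with the spread of all 16 arrays, and 31 with 1 mean per group. Apart from the replicate block, they stayed within 1.5 times in the other settings that kept all arrays, where the split of higher and lower was 13 and 6 after median centring, 15 and 11 with log2(signal + 32), 16 and 9 with spike-in scaling and 11 and 5 with the filter blind to groups, against 11 and 8. The 25 LD calls became 2 without the floor, 4 without the filter, 1 with present calls, 1 with all 16 arrays, 0 with only the 4 arrays compared and 40 with trended robust variances. The unmoderated test gave 255 unadjusted and 0 adjusted under LD, and 165 and 0 under SD. The 0 calls under SD became 1 with log2(signal + 32), 4 without the filter and 2 with all 16 arrays. Between daylengths the 0 became 2 without the filter, 1 after quantile normalization and 1 with trended robust variances. No call changed direction, and the causes were not tested. Leaving out 1 array gave 0 to 55 calls, 0 to 6 under LD, 0 to 3 under SD, 0 between daylengths, and 1 to 36 between space and ground.

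With a replicate block the 19 calls became 11, 9 of them shared. Deviations of same-numbered arrays correlated at -0.28 to 0.21 over 6 pairs of groups, over 0.1 in 3, so the numbers were not taken to pair the arrays. Genes near the floor have at best bounds, and 2 arrays a group limit every test.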

Other observations

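Aliphatic glucosinolate synthesis, which makes sulfur-rich defence compounds from methionine, held several of the wider differences outside the calls. Of 11 glucosinolate genes tested, 3 were nominally lower in FG (against 1.35% of all probe sets) and 1 nominally higher (against 1.16%), none was called (limma), and the median was -0.26. BCAT4, the aminotransferase of the first step, had 122, 64.2, 300 and 68.5 in FG leaves, against 1061, 934, 918 and 377 in WT leaves, with -2.67 ± 0.49, adjusted p = 0.0829. IMS2, called lower in FG and outside the list, is annotated as a methylthioalkylmalate synthase too. MAM1, the list's enzyme of that name, which lengthens the methionine chain, had -1.99 ± 0.53, adjusted p = 0.150, and CYP83A1 -1.93 ± 0.62, adjusted p = 0.203. CYP79B2, which starts the indole branch from tryptophan, had the opposite sign, at 834, 677, 199 and 816 in FG leaves against 238, 175, 49.3 and 158 in WT leaves, with 1.88 ± 0.41, adjusted p = 0.105. All 11 nitrate and sulfur assimilation genes were negative, 2 nominally lower (against 1.35% of all probe sets) and none called, with a median of -0.51, and the APS reductase APR3 had -1.26 ± 0.32, adjusted p = 0.134.

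In the other lists no gene was called with daylength as a covariate, and CML38 (touch and calcium) and SRO5 (hypoxia) were called lower under LD. Among 6 cell wall genes (median -0.22), XTH30, a xyloglucan-modifying enzyme, had 1.37 ± 0.21, adjusted p = 0.0634, and the expansin EXPA1 -1.14 ± 0.27, adjusted p = 0.123. The reactive oxygen list (median -0.08) held the kinase OXI1 (AGC2-1) at 0.84 ± 0.15, adjusted p = 0.0777, the auxin list (median -0.44) IAA1 at -0.88 ± 0.16 or lower, adjusted p = 0.0829, and touch and calcium (median -0.33) TCH2 at -0.70 ± 0.15, adjusted p = 0.0935. In the ethylene list (median 0.03), ACS2 had 1.35 ± 0.44, adjusted p = 0.210. All 11 DNA replication genes were negative (median -0.29), as were all 7 hypoxia genes (median -0.28). Medians were 0.26 for senescence, with 10 of 11 positive, -0.18 for ribosome biogenesis and 0.01 for flavonoids. Among marker lists they were 0.14 for root, 0.15 for guard cells and -0.12 for phloem.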
